A study of Bos taurus with 47 samples.

Results

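Bovine morulae made by in vitro fertilization (IVF) were compared with IVF 8-cell embryos, gene by gene. The study profiled 47 libraries from bovine oocytes, fibroblasts, IVF embryos, embryos made by somatic cell nuclear transfer (scNT) and blastocyst-derived cells. The 4 IVF morula libraries were collected on day 6 and the 4 IVF 8-cell libraries on day 3 after fertilization, as pools of 20 embryos. All of these embryos came from in vitro matured oocytes fertilized with frozen semen of a Holstein bull. All were grown on a layer of cumulus cells in synthetic oviductal fluid with serum. The labels' texts differ on how many pools were taken per stage, and they do not say whether the pools of a stage came from separate cultures. The p-values below thus reflect how these pools varied, and part of that variation may be technical.

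A gene entered the comparison when its normalized count was 10 or more in at least 4 of the 8 libraries. This took in 13407 of the 20526 genes of the table. Of the 7119 left out, 300 were at 0 in all 8 libraries. The threshold cut through a thin layer of low genes. The 540 genes with exactly 4 libraries at 10 or more had a median mean of 12.2 normalized counts, and the 437 with exactly 3 had 9.11. Most tested genes were far from it, since 11189 reached 10 in all 8 libraries. Few genes abundant elsewhere in IVF development were missed. Of the genes left out, 1 had an oocyte mean of 100 or more and 23 had such a blastocyst mean, against 225 in cells derived from IVF blastocysts and 191 in fibroblasts.

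An early embryo first lives on RNA and protein that the oocyte stored. Its own genome is then switched on while the stored RNA is broken down, a handover known as the maternal-to-embryonic transition, and in cattle the main wave of activation falls around the 8-cell stage. The morula follows, in which the cells flatten against each other and begin to take on an inner or an outer position before the blastocyst forms. The genes are listed here by Ensembl identifiers without names, and 0 of the 20526 identifiers matched the reference table at hand. Genes are therefore described in groups, made from their levels in libraries that took no part in the comparison, and 4 identifiers stand for single genes. Markers of the stages, of cumulus cells and of other cell types could not be looked up for the same reason. Carry-over from the cumulus layer was not tested.

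The recovered reads numbered 4783919 to 8241675 in morula libraries and 6413054 to 11306619 in 8-cell libraries. The 8-cell libraries differed more among themselves. Pairs of morula libraries correlated at r between 0.958 and 0.971 on the log2 scale, and pairs of 8-cell libraries at r between 0.866 and 0.964, with the lowest value between replicates 2 and 4. The median gene had a standard deviation of 0.25 log2 units over the morula libraries and 0.46 over the 8-cell libraries, and 10451 of 13407 genes (78.0%) varied more in 8-cell embryos. Across genes, the morula libraries resembled the mean blastocyst at r between 0.840 and 0.860 and the mean oocyte at r between 0.740 and 0.765. The 8-cell libraries resembled the blastocyst at r between 0.561 and 0.679 and the oocyte at r between 0.787 and 0.908. Replicate 2 stood nearest to the blastocyst and farthest from the oocyte among the 8-cell libraries, and replicate 4 the reverse. These correlations are descriptions across genes, which are not independent.

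A large share of the genes tested differed between the stages. Of 13407 genes, 6148 (45.9%) were called, 2656 higher in morulae (19.8%) and 3492 lower (26.0%), in limma's test on log2(normalized count + 1) with a Benjamini-Hochberg adjusted p under 0.05 (n = 4 and 4). The rises were larger than the falls. Among the genes called higher, 2047 rose at least 2-fold, 788 at least 4-fold, 267 at least 8-fold and 50 at least 32-fold. Among those called lower, 1877, 140, 41 and 1 fell by as much. The median log2 change was 1.46 for the higher genes, -1.03 for the lower ones and -0.19 for all genes tested. Scaling moved the last value, which was -0.05 with median-of-ratios factors from these 8 libraries, so medians of gene groups are set below against that of all genes. The numbers called higher and lower then became 3045 and 2733.

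**Figure D1:**
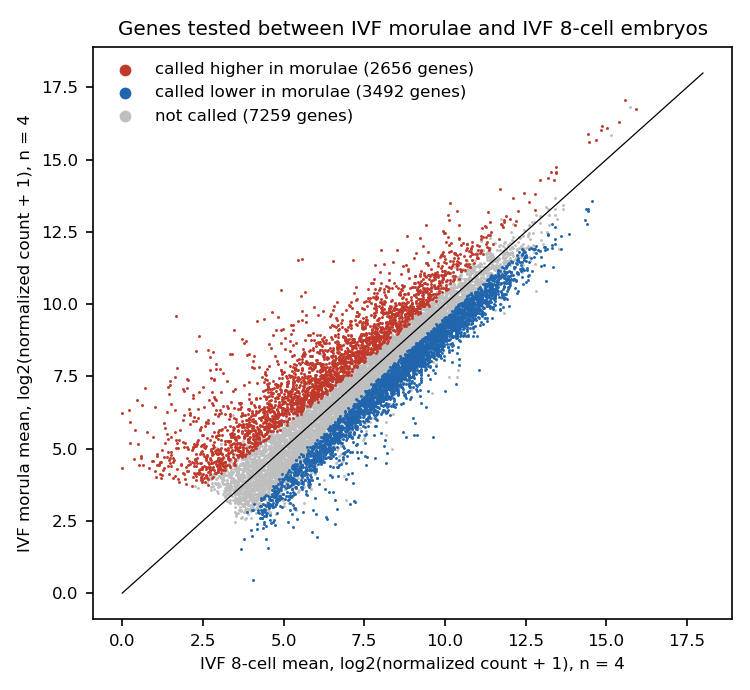
Mean level in IVF morulae (vertical axis) against IVF 8-cell embryos (horizontal axis) for the 13407 genes tested, both as log2(normalized count + 1) over 4 libraries. Red points are the 2656 genes called higher in morulae, blue points the 3492 called lower and grey points the 7259 not called, and the farthest points lie above the diagonal of equal level.

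The libraries of the stages did not overlap for 5533 of 13407 genes (41.3%), of which 2357 were called higher, 2750 called lower and 426 not called. Of the 7259 genes not called, 3256 had a 95% interval that lay wholly within a 2-fold change in either direction, with a median level of 306 normalized counts. The other 4003 had intervals that reached beyond 2-fold, with a median level of 56.8. For these mostly low genes a change of that size could not be told from none at this depth and spread.

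Which way a gene went followed its levels before and after the step. The step lies between these stages, so a gene with unlike levels in them had to change somewhere on the way. The counts by level thus describe how much of that change fell at this step, and their direction is favoured by the sorting. The oocyte and the IVF blastocyst libraries, none of which entered the test, sorted the genes into 5 levels each by mean normalized count. Counts are not per gene length, so these are levels of reads and not of molecules. Of the 821 tested genes with a mean of 1000 or more in both, 152 were called higher in morulae (18.5%) and 174 lower (21.2%), close to the shares over all genes. Of the 706 with 100 to 1000 in oocytes and 1000 or more in blastocysts, 382 were higher and 8 lower. Of the 1060 with 1000 or more in oocytes and 100 to 1000 in blastocysts, 10 were higher and 729 lower. One level further apart, 114 of 146 genes with 10 to 100 in oocytes and 1000 or more in blastocysts were higher and 0 were lower. In the mirror group, with 1000 or more in oocytes and 10 to 100 in blastocysts, 160 of 187 were lower and 0 were higher. These counts of 0 from limma were also 0 by edgeR, by DESeq2 and at an unadjusted limma p under 0.05.

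**Figure D2:**
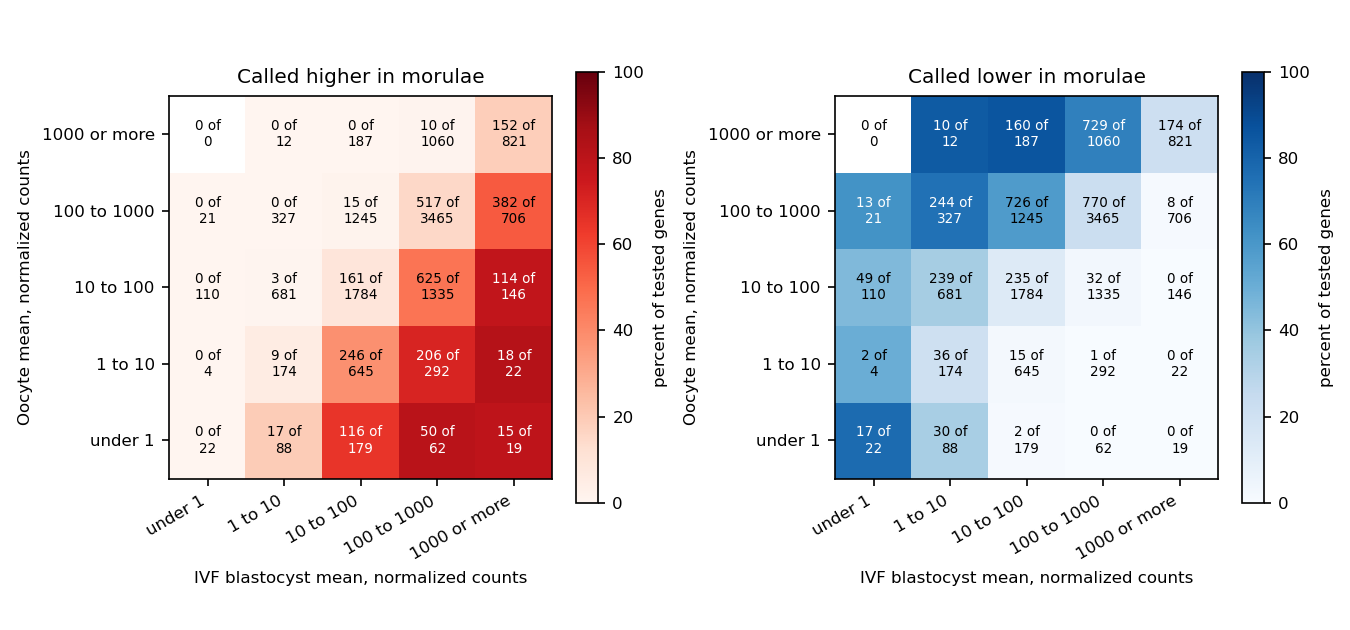
Share of tested genes called higher (left, red) and lower (right, blue) in IVF morulae relative to 8-cell embryos, by the mean normalized count in oocytes (vertical axis) and in IVF blastocysts (horizontal axis). Each cell gives the number called of the number tested, and calls higher gather at the lower right, such as 114 of 146, and calls lower at the upper left, such as 160 of 187.

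Sorted by the mean level in the oocyte alone, the genes called higher showed a gradient. The genes called higher made up 53.5% of the 370 tested genes with an oocyte mean under 1, 42.1% of the 1137 between 1 and 10, and 22.3% of the 4056 between 10 and 100. They made up 15.9% of the 5764 between 100 and 1000 and 7.79% of the 2080 at 1000 or more. The genes called lower made up 13.2%, 4.75%, 13.7%, 30.6% and 51.6% of the same groups, so their share did not rise steadily at the low end. The median log2 change was -0.61 in the highest group, against -0.19 for all genes. The lowest group held 4777 genes in the table, of which 370 were tested. Of these, 111 passed the filter through morula libraries alone and 9 through 8-cell libraries alone, so they had to differ, and its shares do not describe all 4777. The same holds for 109 and 6 of the 1137 genes of the next group. Without the filter 437 genes of the lowest group were called higher, in place of 198.

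Most oocyte genes that were low in blastocysts fell, and none was called higher. This oocyte-only group was defined by an oocyte mean of 100 or more and an IVF blastocyst mean under 10. It held 361 genes, of which 360 were tested, 267 were called lower (74.2%, against 26.0% of all genes) and 0 were called higher (against 19.8%). The second count was also 0 by edgeR, by DESeq2 and at an unadjusted limma p under 0.05. The median log2 change was -1.15, and -0.96 relative to that of all genes. The mean log2 level over the 361 genes was 5.92, 5.90, 5.95 and 5.66 in morula replicates 1 to 4. In 8-cell replicates 1 to 4 it was 7.22, 6.34, 7.03 and 7.37. All morula libraries lay below all 8-cell libraries, and the 8-cell library nearest to the morulae was replicate 2. The loss was not complete at this step. Between 351 and 360 of the 361 genes were still at 10 or more normalized counts in each morula library, and between 355 and 360 in each 8-cell library.

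As a share of the library the oocyte-only genes held 0.381% ± 0.020 in morulae and 0.878% ± 0.245 in 8-cell embryos (SD, n = 4 each). They had held 1.45% ± 0.10 in oocytes, and they held 0.0197% ± 0.0057 in IVF blastocysts. On the log2 scale their mean level was 7.87 ± 0.07 in oocytes, 7.49 ± 0.48 in 2-cell embryos, 6.99 ± 0.46 in 8-cell embryos, 5.86 ± 0.14 in morulae and 2.20 ± 0.33 in blastocysts. The oocyte and blastocyst values are fixed by how the group was chosen and carry no weight of their own. The choice also required a fall somewhere between oocyte and blastocyst, so the direction at this step was favoured by it. In pools of whole embryos, fewer cells with an RNA and less of it per cell cannot be told apart, and a share of the library is not an amount per embryo.

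Most blastocyst genes that were low in oocytes rose, and none was called lower. This blastocyst-only group had means under 10 in oocytes and IVF 2-cell embryos and of 100 or more in IVF blastocysts. It held 228 genes, of which 207 were tested, 179 were called higher (86.5%, against 19.8% of all genes) and 0 were called lower (against 26.0%). The second count was also 0 by edgeR, by DESeq2 and at an unadjusted limma p under 0.05. Of the 207, 60 passed the filter through morula libraries alone and so had to differ, which makes the count of 179 a description. The levels over all 228 genes do not depend on the filter. They do depend on the choice of the group, which required a rise somewhere between the 2-cell embryo and the blastocyst. The mean log2 level over the 228 genes was 6.45, 6.19, 6.22 and 6.38 in morula replicates 1 to 4. In 8-cell replicates 1 to 4 it was 3.42, 4.17, 3.49 and 2.15. Every morula library lay above every 8-cell library, and the 8-cell libraries lay farther apart from each other.

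Much of the blastocyst-only group was already detected in some 8-cell pools. The number of its 228 genes at 10 or more normalized counts was 208, 207, 212 and 206 in morula replicates 1 to 4, and 103, 132, 101 and 40 in 8-cell replicates 1 to 4. Replicate 2 was again the 8-cell library nearest to the morulae, and replicate 4 the farthest. As a share of the library these genes held 0.696% ± 0.086 in morulae and 0.121% ± 0.096 in 8-cell embryos (SD, n = 4 each). The tested genes of this group had a median standard deviation of 0.35 log2 units over the morula libraries and 1.14 over the 8-cell libraries, against 0.25 and 0.46 for all genes. IVF 2-cell replicate 3 had a mean log2 level of 2.28 for this group, the highest of its stage. When it was left out of the choice, the group held 346 genes, of which 325 were tested, 257 were called higher and 0 lower.

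**Figure D3:**
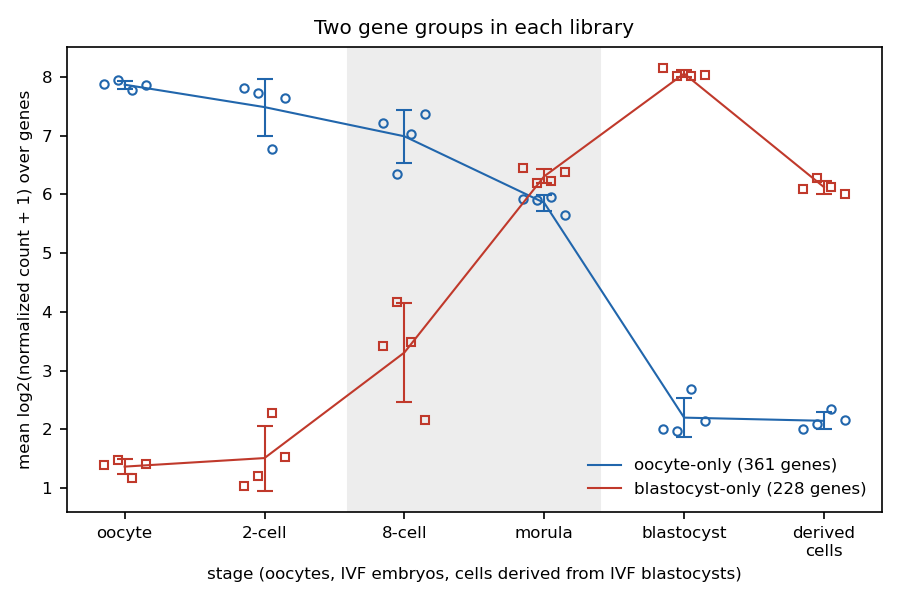
Mean level of the 361 oocyte-only genes (blue circles) and the 228 blastocyst-only genes (red squares) in each library along IVF development, as log2(normalized count + 1), with the mean and standard deviation of each stage. The shaded stages are those compared; the 8-cell libraries are spread out, from 2.15 to 4.17 for the blastocyst-only genes, while the morula libraries lie close together, from 6.19 to 6.45.

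Genes well expressed in both oocytes and blastocysts were called at shares near those over all genes. All of the 6052 shared genes, with a mean of 100 or more in each, were tested. Of these, 1061 were called higher (17.5%, against 19.8% of all genes) and 1681 lower (27.8%, against 26.0%). Their median log2 change was -0.17, 0.02 above that of all genes, with quartiles of -0.64 and 0.40. They make up much of the 13407 genes tested, so a median near that of all genes says little about them. The balance of calls turned with the scaling, with 1285 higher and 1248 lower by limma on median-of-ratios values. It was 1308 and 1217 by edgeR, and 1311 and 1401 by DESeq2. They held 87.0% ± 0.26 of the library in morulae and 85.0% ± 1.10 in 8-cell embryos (SD, n = 4 each). Even among genes with a large store in the oocyte some rose. The 162 genes called higher with an oocyte mean of 1000 or more had a median log2 change of 0.96. Their median level was 2942 normalized counts in morulae and 1447 in 8-cell embryos, beside 1649 in oocytes and 3897 in IVF blastocysts.

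Some genes reached the threshold at one of the stages alone. Of the genes tested, 226 were at 10 or more normalized counts in all 4 morula libraries and in no 8-cell library. The opposite held for 46 genes. The numbers were not compared by a test, and the 8-cell libraries varied more, as given above. These lists were picked by their values in the comparison, so their own levels are a description. The 226 genes had a median of 26.7 normalized counts in morulae, and 25 of them reached 100. In libraries outside the comparison, 220 of the 226 had an oocyte mean under 10, against 11.2% of all genes tested. The choice favoured this, since the 226 were low in every 8-cell library and 8-cell libraries resembled the oocyte across genes. Most genes tested were at 10 or more in all 8 libraries, so the share over all genes is not a like background. The IVF 2-cell mean was under 10 for 224 of them. In IVF blastocysts 20 had a mean under 10, near the share of 10.7% over all genes tested. The other 206 had a mean of 10 or more, and 62 of 100 or more. In cells derived from IVF blastocysts 108 had a mean of 10 or more, and in fibroblasts 79. The shares over all genes tested were not counted for 2-cell embryos, derived cells and fibroblasts, so these counts are a description.

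The 46 genes seen in all 8-cell libraries alone had a median of 20.8 normalized counts there, and none reached 100. Of these, 31 had an oocyte mean of 10 or more and 15 had one under 10, against 11.2% under 10 over all genes tested. An IVF blastocyst mean under 10 was found for 41, against 10.7% of all genes tested. The choice favoured this, since the 46 were low in every morula library and morula libraries resembled the blastocyst across genes. Most genes tested were not near 10, so the shares over all genes are not a like background. Among scNT embryos, which share no library with the IVF embryos, 150 of the 226 genes were likewise at 10 or more in all morula libraries and in no 8-cell library. For the 46 genes the same 8-cell pattern was met by 15. How many of all genes met these scNT patterns was not counted.

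A small set of genes fell that were low in the oocyte. Of the 3492 genes called lower, 2834 (81.2%) had an oocyte mean of 100 or more, against 58.5% of all genes tested, while 103 (2.95%) had an oocyte mean under 10, against 11.2% of all genes tested. Of these 103, 43 also had means under 10 in IVF 2-cell embryos and IVF blastocysts. Over these 43 genes the median level was 7.68 normalized counts in morulae and 57.9 in 8-cell embryos, beside 0.375 in oocytes, 4.33 in 2-cell embryos and 1.43 in blastocysts. Their median log2 change was -2.97. In cells derived from IVF blastocysts 40 of the 43 had a mean under 10, beside 724 of all 3492 genes called lower. The mirror set was made by the same means. Of the 2656 genes called higher, 26 had means under 10 in oocytes, IVF 2-cell embryos and blastocysts. Of these, 24 also had a mean under 10 in cells derived from IVF blastocysts, beside 288 of all 2656 genes called higher. Over the 26 genes the median level was 22.2 normalized counts in morulae and 4.65 in 8-cell embryos, beside 6.66 in blastocysts. Both sets were picked by their calls in the comparison, so their morula and 8-cell levels and the log2 change are a description.

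Nearly all genes called higher were still detected in blastocysts. In all, 29 of the 2656 genes called higher (1.09%) had an IVF blastocyst mean under 10, against 10.7% of all genes tested and 640 of the 3492 called lower (18.3%). The median log2 level of the higher genes was 5.89 in oocytes, 6.04 in 2-cell embryos, 6.23 in 8-cell embryos, 7.80 in morulae and 8.48 in blastocysts, and 7.79 in cells derived from them. For the lower genes it was 8.93 in oocytes, 8.82 in 8-cell embryos, 7.77 in morulae and 6.58 in blastocysts. The 8-cell and morula values are those that made the calls, and the others come from other libraries.

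Fibroblast genes with low oocyte and blastocyst levels were mostly too low to test. The fibroblast-only group, with a fibroblast mean of 100 or more and means under 10 in oocytes and IVF blastocysts, held 155 genes. Of these, 38 were tested, and 1 was called higher (2.63%, against 19.8% of all genes) and 11 lower (28.9%, against 26.0%). The share called lower was thus near that of all genes. The count of 11 was 22 without morula replicate 3, 7 without morula replicate 1, morula replicate 4 or 8-cell replicate 4, and 6 without 8-cell replicate 2. The fits without 1 library asked for 10 or more in at least 3 libraries, so the genes tested changed as well. The count was 7 with equal library totals or median-of-ratios scaling, 6 by edgeR and 17 without the filter. The number of the 155 genes at 10 or more was 16, 34, 48 and 13 in morula replicates 1 to 4, and 45, 62, 46 and 73 in 8-cell replicates 1 to 4. The stages overlapped. The mean log2 level was 2.17 ± 0.37 in morulae and 2.79 ± 0.35 in 8-cell embryos, beside 7.85 ± 0.84 in fibroblasts (SD, n = 4 each). Whether any of it came from other cells was not tested.

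The most abundant genes took a larger share of the reads in every morula library than in any 8-cell library. The 100 most abundant genes of a library held 25.8%, 23.4%, 22.7% and 21.3% of morula replicates 1 to 4, and 16.8%, 19.3%, 15.6% and 17.1% of 8-cell replicates 1 to 4. The groups did not overlap and their means differed by 6.11 percentage points, with 23.3% ± 1.9 in morulae and 17.2% ± 1.6 in 8-cell embryos (SD, n = 4 each; two-sided exact permutation p = 0.0286, as low as 4 against 4 can go). Adjusted over both whole-library tests by Benjamini-Hochberg, the exact permutation p was 0.0571. Of the 100 genes with the highest mean in morulae, 55 were also among the 100 highest in 8-cell embryos. Among these 100 morula genes 56 were called higher and 12 lower, and among the 100 highest in 8-cell embryos 19 were called higher and 44 lower. Each list was picked by its own stage's mean, which favours that direction, so the counts are a description.

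The mean number of genes detected was higher in morulae, by a difference that did not pass the test. After thinning to 4783919 reads, 17295, 17411, 17519 and 17001 genes had at least 1 read in morula replicates 1 to 4. In 8-cell replicates 1 to 4 there were 16916, 17171, 16948 and 16559. The mean difference was 408 genes and the groups overlapped (two-sided exact permutation p = 0.0571, adjusted 0.0571).

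**Figure D4:**
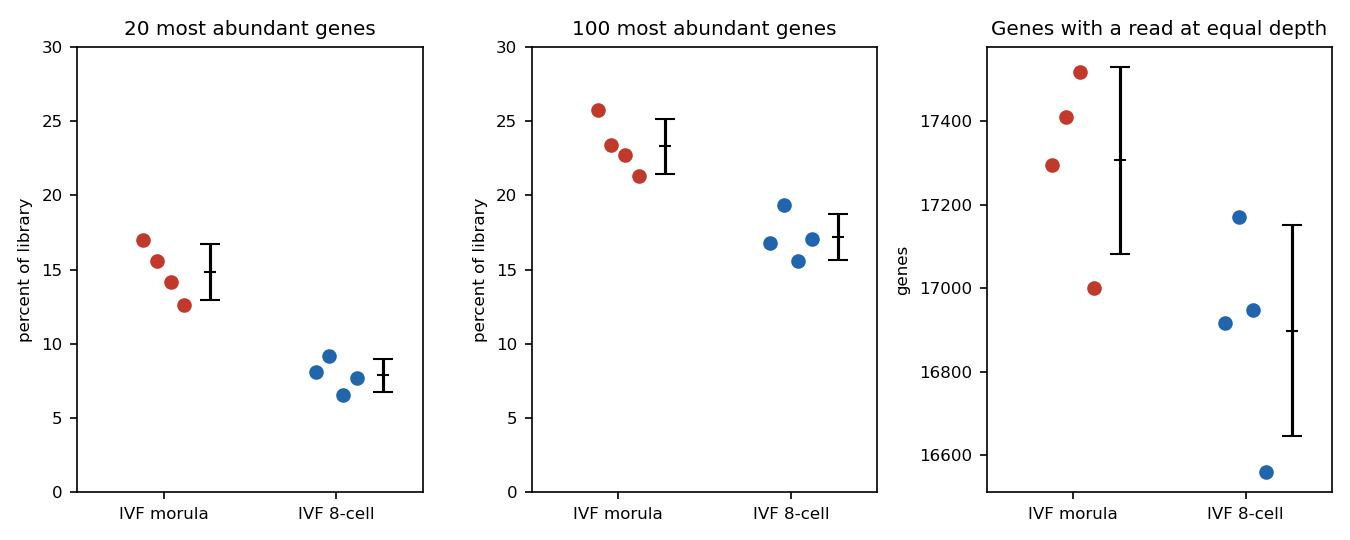
Percent of the library in its 20 and its 100 most abundant genes (left, middle), and genes with at least 1 read after thinning to 4783919 reads (right), by library, with mean and standard deviation. The morula libraries, at 21.3% to 25.8%, all lie above the 8-cell libraries, at 15.6% to 19.3%, for the 100 most abundant genes, while the gene numbers overlap; the right axis does not start at 0.

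The identifiers named here were picked in each direction for the largest log2 change and the largest difference in mean. Each also needed a limma call, no overlap between the stages and a mean of 50 or more in the higher one. This was met by 1973 genes that rose and 2537 that fell. Their levels in the 2 stages made the choice and serve only to describe, and their levels at other stages and in scNT embryos took no part in it.

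ENSBTAG00000004950 had 1243.4, 866.5, 338.9 and 625.9 normalized counts in morula replicates 1 to 4, against 4.5, 1.2, 1.0 and 1.9 in 8-cell replicates 1 to 4. Every morula library was high and every 8-cell library was low, where 3 reads would have given 1.94 to 3.67. The log2 change was 7.90 ± 0.45 (SE; limma, Benjamini-Hochberg adjusted p = 1.38e-05). It remained at 700 ± 441 in IVF blastocysts and was listed at 0 in all 4 libraries of cells derived from them, where 3 reads would have given 2.78 to 3.47. In oocytes it had 0.225 ± 0.45, in 2-cell embryos 0.300 ± 0.60 and in fibroblasts 0.200 ± 0.40. In scNT embryos it had 1034 ± 531 in morulae (SD, n = 3) and 1.05 ± 0.73 in 8-cell embryos (SD, n = 4), with the same near absence before and in derived cells. Among the groups of the study it was high only in morulae and blastocysts, of both methods.

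ENSBTAG00000043561 had 153882, 102415, 90890.5 and 90749.7 normalized counts in morula replicates 1 to 4, against 64633.2, 72944.2, 43162.5 and 69764.3 in 8-cell replicates 1 to 4. Morula replicate 1 was the highest and 8-cell replicate 3 the lowest. The log2 change was 0.80 ± 0.24 (SE; limma, Benjamini-Hochberg adjusted p = 0.0210). The call was lost without morula replicate 1 (0.62, limma adjusted p = 0.0542), without 8-cell replicate 3 (0.63, limma adjusted p = 0.0573) and in a fit of all 47 libraries (limma adjusted p = 0.0563). At other stages it had 21460 ± 3045 in oocytes, 53337 ± 43211 in 2-cell embryos and 407675 ± 19207 in IVF blastocysts. The 2-cell spread came from replicate 3, at 113316, where the others had 14854.5 to 54671.4. Fibroblasts had 311221 ± 106329 and cells derived from IVF blastocysts 302112 ± 59764, so this was a gene with many reads in every group.

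ENSBTAG00000040450 had 97.2, 26.8, 41.7 and 0 normalized counts in morula replicates 1 to 4, against 629.6, 747.2, 1134 and 686.8 in 8-cell replicates 1 to 4. All morula libraries were low, and a count of 0 in replicate 4 allows up to 2.57. The log2 change was -5.40 ± 1.21 (SE; limma, Benjamini-Hochberg adjusted p = 0.00712), and it was -4.00 without morula replicate 4, -6.20 without morula replicate 1 and -4.14 by edgeR. It was listed at 0 in all oocyte and fibroblast libraries, where 3 reads would have given 1.55 to 2.65 in oocytes and 2.09 to 2.45 in the 3 fibroblast libraries with recovered reads. The IVF 2-cell libraries had 0, 3.8, 173.2 and 5.3, again with replicate 3 apart, and IVF blastocysts had 1.88 ± 2.17. In scNT embryos it had 43.3, 92.2 and 9.1 in morulae and 465.8, 193.4, 83.7 and 24.9 in 8-cell embryos. The scNT libraries of the stages overlapped and the scNT log2 change was -1.78 (limma adjusted p = 0.174). The difference between the methods was not tested.

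ENSBTAG00000004912 had 6862, 7957.2, 7727 and 5787.3 normalized counts in morula replicates 1 to 4, against 23569.8, 12776, 24955.9 and 25394.2 in 8-cell replicates 1 to 4. The 8-cell replicate 2 was the lowest of its stage and still above every morula library. The log2 change was -1.57 ± 0.24 (SE; limma, Benjamini-Hochberg adjusted p = 9.46e-04). Oocytes had 25387 ± 2132 and IVF 2-cell embryos 28572 ± 8999, while IVF blastocysts had 2680 ± 175 and fibroblasts 2885 ± 216 (SD, n = 4 each). It thus fell by the morula and was lower again in blastocysts, but was well detected in every group.

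**Figure D5:**
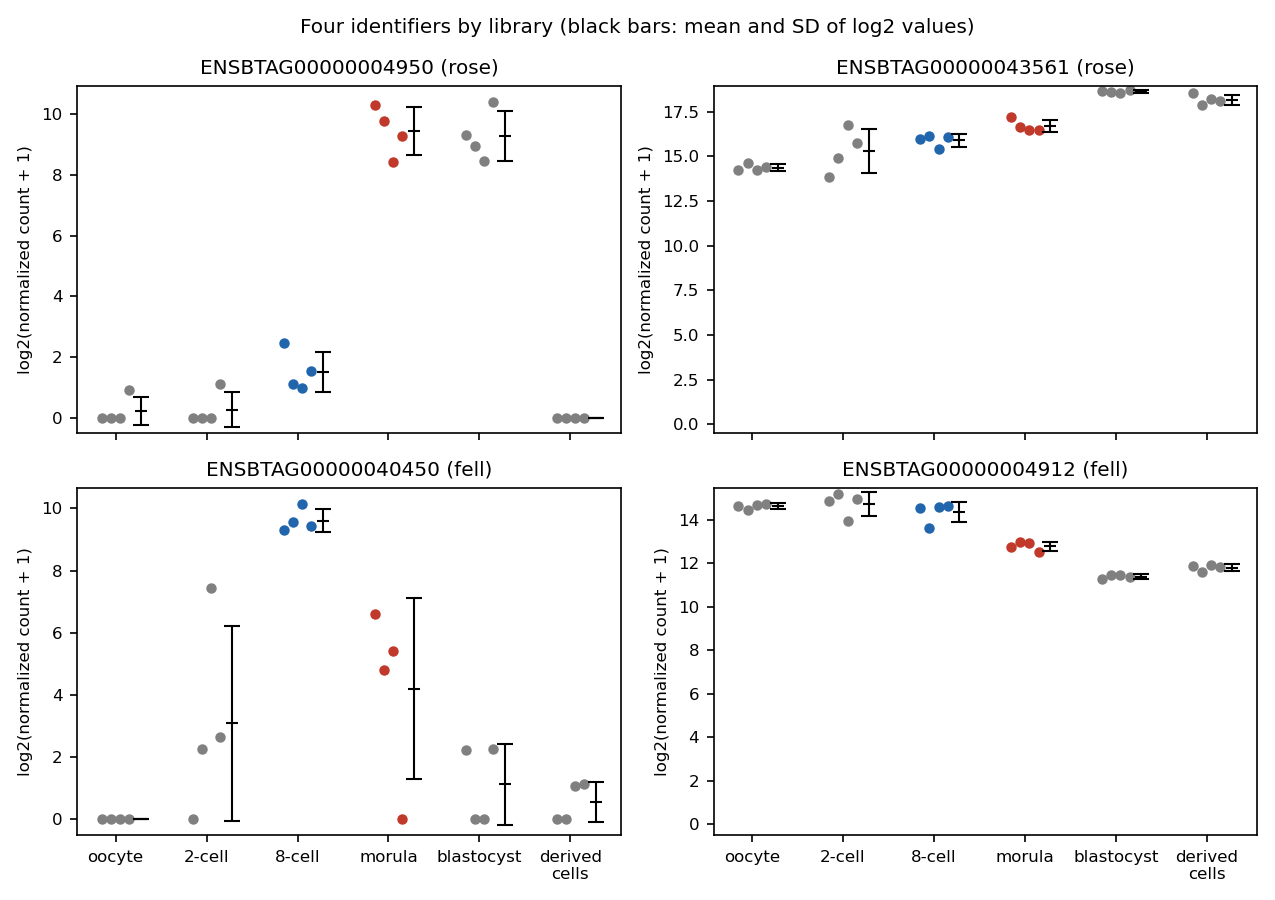
Level of the 4 named identifiers in each library along IVF development, as log2(normalized count + 1), with morulae in red, 8-cell embryos in blue, other stages in grey and black bars for the mean and standard deviation of the log2 values. ENSBTAG00000004950 is high in morulae and blastocysts, ENSBTAG00000040450 peaks in 8-cell embryos, and both others are well detected at every stage.

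Most genes called in IVF embryos were called in the same direction over this step in scNT embryos. The scNT step was tested with its own filter, a normalized count of 10 or more in at least 3 of the scNT libraries compared. The genes tested thus differed in part from those tested in IVF embryos. Of the 2656 genes called higher in IVF morulae, 2590 were tested between scNT morulae (n = 3) and scNT 8-cell embryos (n = 4). Of these, 2370 were called higher there, and the median log2 change was 2.23, beside 1.46 in IVF embryos. Over all genes tested in scNT embryos, 31.2% were called higher and 37.7% lower. Of the 3492 called lower, 3470 were tested in scNT embryos and 3063 were called lower, with a median of -1.98 there and -1.03 in IVF embryos. Of the oocyte-only genes 355 of 360 tested were called lower over the scNT step, and of the blastocyst-only genes 190 of 196 were called higher (limma). Both groups were chosen to differ between oocytes and IVF blastocysts, which favours these directions. Smaller shares were called in some other groups, among them fallen genes that were low in oocytes. Of the 43 genes called lower with means under 10 in oocytes, 2-cell embryos and blastocysts, 30 were tested in scNT embryos and 8 were called lower. Of the 103 genes called lower with an oocyte mean under 10, 82 were tested there and 15 were called lower. The mirror set did not share this. Of the 26 genes called higher with means under 10 in oocytes, 2-cell embryos and blastocysts, 17 were tested there and 17 were called higher. Of the 509 called higher with means under 10 in oocytes and 2-cell embryos, 444 were tested and 424 called higher. Of the 162 called higher with an oocyte mean of 1000 or more, 142 were called higher there. Genes with means under 10 in both oocytes and IVF blastocysts had a median log2 change of 0.28 in scNT embryos, with 109 of 367 called higher and 55 lower. In IVF embryos their median was -0.94, with 26 of 288 called higher and 85 lower. These 288 and the 367 passed different filters and are not the same set. Such genes number 6349 in the table. Of the 288, 18 passed through morula libraries alone and 15 through 8-cell libraries alone. Without the filter 254 were called higher and 220 lower in IVF embryos, so the counts of 26 and 85 describe only the genes tested. The difference between the methods was not tested for any of these groups.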

How the data were processed

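Libraries were made from RNA longer than 200 nt with a low-input kit and repeated PCR, per the labels' protocols. No source at hand names molecular identifiers, so detection limits cover counting error only. The submitters' processing notes list STAR, DESeq2, FastQC and MultiQC and the build UMD3.1, without versions or roles. The signal deposited by the authors was 1 normalized count per gene and library. In each of the 47 libraries nearly all values were whole multiples of 1 step, from which whole reads were recovered. Those of fibroblast replicate 1 were not counted as recovered, since its step of 1.01 was too near 1 to tell reads from rounding. In the 8 libraries compared, 100% of values up to 200 reads were whole within 0.1 reads.

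Genes were tested with limma 3.58.1 (trend, robust) in R 4.3.3 on log2(value + 1), without a replicate block, two-sided, with Benjamini-Hochberg adjustment over 13407 genes. Such changes understate those of low genes. On simulated data of these 13407 genes the fit recovered 22.0% of genes changed 2-fold and 90.0% of those changed 4-fold. Of its calls, 5.08% were unchanged genes. The simulation changed 100 genes by each amount, all with a mean of 50 or more scaled reads, and gave both stages the same spread. In the data 6148 genes were called and the 8-cell libraries varied more, so these shares do not measure sensitivity or error here. Recovered reads also went to edgeR 4.0.16 and DESeq2 1.42.0. Between replicates, chi-square per degree of freedom was at least 16.4, so no library was counted as a duplicate. None of the 22 lists of named genes could be used. Up to 2 identifiers per direction were named, by the rule given with them. Alternatives changed the pseudocount, filter, scaling, test, replicate block, libraries fitted or 1 library left out. Choosing groups without IVF 2-cell or fibroblast replicate 3 was added after seeing the data. The comparison, groups and lists were chosen with earlier results of these data known.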

Additional observations from a re-analysis of the deposited data

Results flagged for a closer look

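ENSBTAG00000004912 had 1 library far from the others of its stage. The 8-cell replicate 2 had 12776 normalized counts, and the next lowest 8-cell library had 23569.8. Chance flags about 1 in 20 such groups of 4 values, and 16 groups were looked at, so a lone flag can arise by chance.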

How the results depend on the processing

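The number of genes called kept within 1.5 times of 6148 under each alternative tried, and no gene called in the main test was called in the opposite direction. Leaving out 1 library gave 4722 to 7668 calls, with 2131 to 3283 higher and 2591 to 4385 lower. The highest numbers came without 8-cell replicate 2 and the lowest without morula replicate 4. The edgeR test called 3016 higher and 2660 lower, DESeq2 3094 and 3131, and equal library totals gave 2880 and 2943. With the replicate block 2416 were higher and 3007 lower, of which 2384 and 2909 were also called without it. Same-numbered libraries correlated in their deviations at r from -0.07 to 0.04 and others from -0.19 to 0.16, and the labels do not pair them. The difference in the share of the 100 most abundant genes was 6.11 points with the replicate block (p = 0.125 by exact sign flips, as low as 4 pairs can go) and 5.30 to 6.83 without 1 library (exact permutation p = 0.0571, the smallest 3 against 4 allows). The difference in genes detected was 295 to 510 without 1 library. Of 344 gene-group counts by alternative, 316 stayed within 1.5 times. Those of genes with means under 10 in both oocytes and blastocysts were 254 higher and 220 lower without the filter, against 26 and 85. Low depth limits genes near 10 normalized counts.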
